A study of Mus musculus with 6 samples.

Results

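The core circadian clock loop of inguinal white adipose tissue was described through 10 genes, Arntl, Clock, Npas2, Per1, Per2, Per3, Cry1, Cry2, Nr1d1 and Nr1d2. They were chosen by name, through their gene IDs, from 24415 gene IDs in the deposited count table, and all 10 were found and passed the filter on low counts. Tissue came from 6 nonfasted C57BL/6 background mice, 12 weeks of age, of which 3 were WT and 3 Hsp20 KO, with 1 RNA sequencing library per mouse, and the groups share housing, age, depot and background. Hspb6 encodes Hsp20, a small heat shock protein. The part of Hspb6 that the allele lacks, the cells in which it is lacking, the sex of the mice, whether the controls were littermates and the time of day of collection were not given in the sources used here. Where collection times differed between the groups, time of day and genotype cannot be told apart.

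The circadian clock of mammalian cells is a loop of transcription factors that represses itself once a day. BMAL1, the product of Arntl, pairs with CLOCK or its paralog NPAS2, binds E-box elements and activates the Per, Cry and Nr1d genes. PER and CRY proteins then return to the nucleus and repress that pair, while REV-ERB alpha and beta, the products of Nr1d1 and Nr1d2, repress Arntl, Npas2 and Clock through elements they share with the activating ROR receptors. White and brown fat hold such clocks, in which Arntl messenger RNA peaks roughly opposite to Nr1d1, and the levels of these genes at a single collection time depend on where in the cycle the tissue was taken.

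The members are spread over the genome (RefSeq spans on GRCm38). In the activating arm, Arntl (gene ID 11865) lies at chr7:113178471-113314126, Clock (12753) at chr5:76209868-76305603 and Npas2 (18143) at chr1:39193702-39363240. The Per genes lie at chr11:69095108-69109965 (Per1, 18626), chr1:91415977-91459351 (Per2, 18627) and chr4:150997018-151044707 (Per3, 18628), and the Cry genes at chr10:85131700-85185054 (Cry1, 12952) and chr2:92403646-92434085 (Cry2, 12953). Nr1d1 (217166) lies at chr11:98767932-98775377 and Nr1d2 (353187) at chr14:18204056-18239106. Arntl is the only member on the chromosome of Hspb6, 82.6 Mb away.

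The targeted gene was checked first. Hspb6 stood at 12.6, 9.43 and 8.95 CPM (a gene's counts relative to its library's total, scaled for composition) in WT replicates 1 to 3, and at 8.86, 1.51 and 3.94 CPM in KO-labelled replicates 1 to 3. The log2 change of Hspb6 was -1.08 ± 0.51 (SE), with a 95% interval from -2.26 to 0.098. Hspb6 thus did not pass the test given in the next paragraph (edgeR adjusted p = 0.227). By its CPM, KO-labelled replicate 1 lay beside WT: on the log2 scale it covered 0.101 of the distance between the WT mean and the mean of KO-labelled replicates 2 and 3. All directions below are those of the 3 KO-labelled libraries (those the labels call Hsp20 KO) against WT, with and without this library where stated. Library totals ran from 14078936 to 32648746 counts. Adipocyte genes marked the tissue, with a summed level of 10 markers between 15460 and 22390 CPM. The 10 markers of brown fat summed to between 139.5 and 198.6 CPM in WT and between 385 and 1043 CPM in the KO-labelled libraries, with 9 called higher, and 6 blood markers to between 5843 and 6729 against between 2618 and 3172 CPM, with 4 called lower. Of the remaining lists (macrophage, lymph node, skeletal muscle, smooth muscle, endothelial, fibroblast, epithelium), 1 smooth muscle gene was called. By the same test, given in the next paragraph, 4.23% of all tested genes were called higher and 3.42% lower. Skeletal muscle markers summed to 803 CPM in WT replicate 1 and to between 49.96 and 115 CPM elsewhere. No marker on these lists was at 0 in all libraries. In bulk tissue, fewer cells of a type and less RNA per cell cannot be told apart, and the part of these cell types in the clock results was not tested.

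The loop moved in opposite directions in its activating and repressing arms. All 3 genes of the activating arm, Arntl, Clock and Npas2, fell, and 4 of the 7 repressor genes, Per2, Per3, Nr1d1 and Nr1d2, rose, while Per1, Cry1 and Cry2 did not pass (edgeR quasi-likelihood F test, Benjamini-Hochberg adjusted p under 0.05 over 15994 tested genes). Across all tested genes 4.23% were called higher and 3.42% lower, 7.65% in either direction. The groups did not overlap for 7 of the 10 members, the same 7 that were called, and for 32.5% of all tested genes. The call and the overlap rest on the same values, so they are not separate results. The median absolute log2 change was 0.87 over the 10 members and 0.18 over all tested genes. Without KO-labelled replicate 1 the counts were again 4 higher and 3 lower, against 5.82% and 4.52% of the genes tested there. Without WT replicate 2 or WT replicate 3 only 2 members were called higher, and without WT replicate 3 only 2 lower, where 79 and 75 genes of the whole table were called higher in all.

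**Figure D1:**
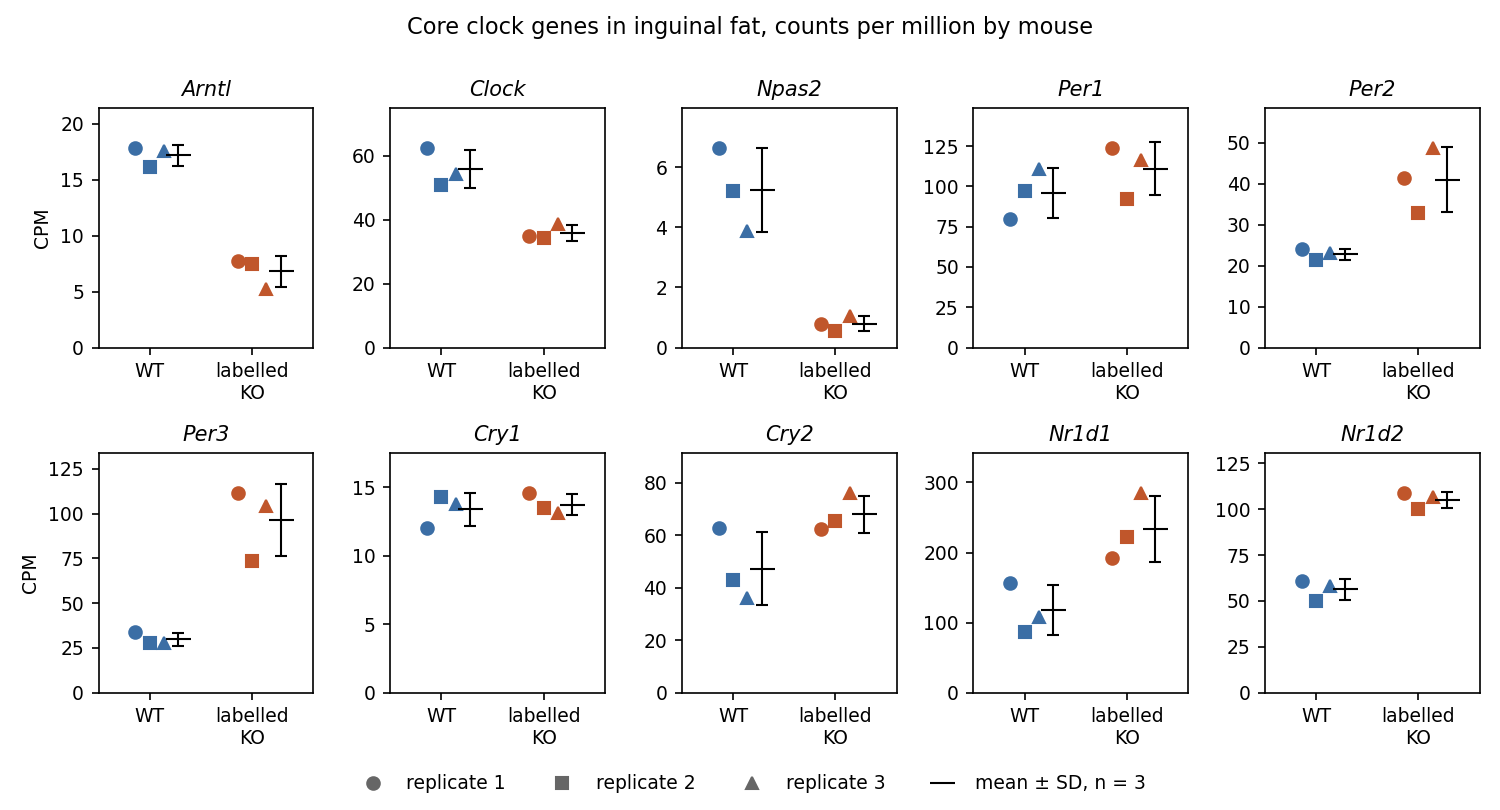
CPM of the 10 core clock genes in each mouse, WT in blue and the KO-labelled libraries in orange, with the mean and SD of 3 libraries beside the points and the vertical axes starting at 0. Arntl, Clock and Npas2 sit lower and Per2, Per3, Nr1d1 and Nr1d2 higher in all 3 libraries labelled knockout, while Per1, Cry1 and Cry2 overlap.

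Short promoter stretches are shown because the clock loop is wired through them. They were read from RefSeq promoter windows of GRCm38.p6, which run from 250 bases before to 50 after an annotated start and covered 9 of the 10 members in 13 windows. Exact matches on both strands were sought for the E-box CACGTG, its variant CACGTT, the REV-ERB and ROR element as TAGGTCA or TGGGTCA, the D-box TTATGTAA or TTACGTAA, and the CRE TGACGTCA. None of the matches overlapped another. Capitals mark the D-boxes of Per3, the E-boxes of Cry1 and Per1, and the REV-ERB and ROR element of Arntl.

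Per3, bases -250 to -121, chr4:151044786-151044915, minus strand: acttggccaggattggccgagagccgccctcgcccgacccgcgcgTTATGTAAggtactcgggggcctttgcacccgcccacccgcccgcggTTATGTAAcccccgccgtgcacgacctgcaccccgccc
Cry1, bases -120 to -1, chr10:85185055-85185174, minus strand: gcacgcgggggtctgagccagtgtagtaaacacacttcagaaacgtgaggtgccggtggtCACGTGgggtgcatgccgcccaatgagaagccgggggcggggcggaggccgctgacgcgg
Per1, bases -200 to -81, chr11:69098749-69098868, plus strand: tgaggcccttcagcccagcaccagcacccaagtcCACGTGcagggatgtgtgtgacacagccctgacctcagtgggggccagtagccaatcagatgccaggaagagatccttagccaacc
Arntl, bases 21 to 47 past the start, chr7:113207531-113207557, plus strand: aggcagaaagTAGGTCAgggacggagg

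The D-box is the element of the activators DBP, TEF and HLF and of the repressor NFIL3. Per3 held 2 of them, beginning at -205 and -158 from its start. Of 32851 windows 1.06% held a D-box and 8 windows, 0.0244%, held 2 or more. An E-box lay in the windows of Cry1 (-60) and Per1 (-166), and in 7.15% of all windows. Its variant lay in those of Cry1 (-79), Cry2 (-166) and Nr1d1 (-28), and in 4.68% of all. Per2 had no window. Of the 9 members scanned, Arntl alone held the REV-ERB and ROR element, at 31 past one of its 2 listed starts, and 6.45% of all windows held it. No member window held the CRE, which 1.79% of all windows did. A match is a description of these letters and not evidence of binding.

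**Figure D2:**
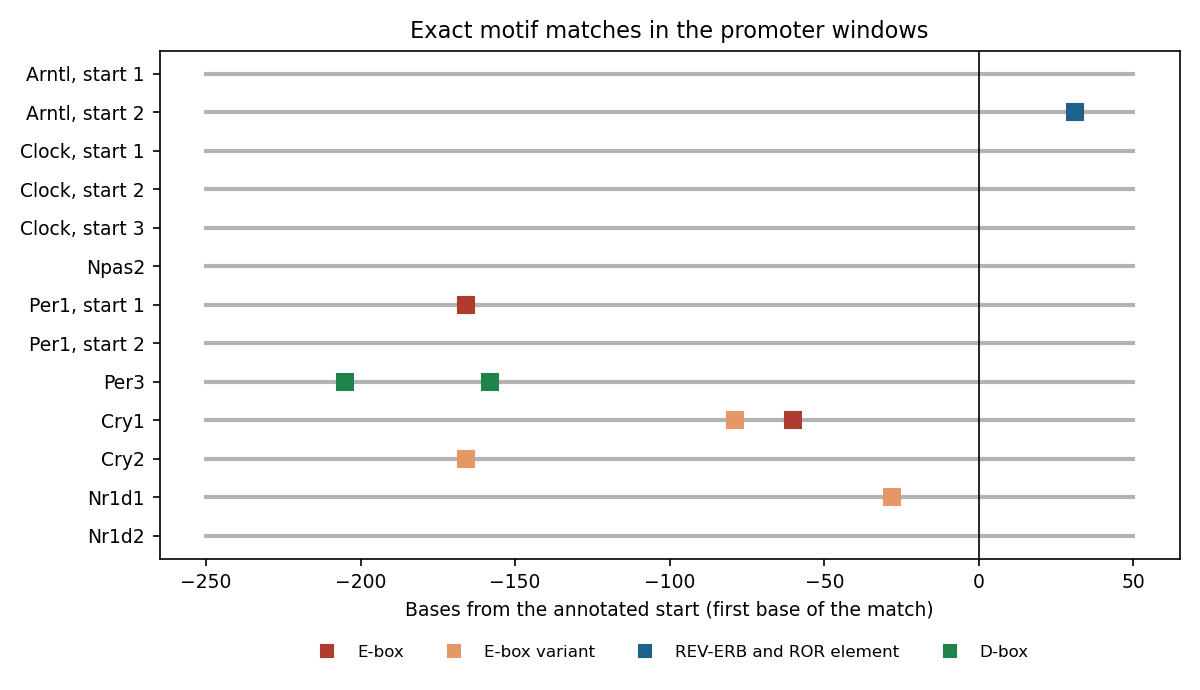
Exact motif matches (coloured squares, first base of the match) along the 13 promoter windows of 9 core clock genes, by distance in bases from the annotated start, with genes of several starts on several rows. The 2 D-boxes of Per3, the E-boxes of Cry1 and Per1 and the element past the second start of Arntl are the matches printed above.

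Arntl encodes BMAL1, which pairs with CLOCK or NPAS2 in the activating arm. Its level was 17.8, 16.1 and 17.6 CPM in WT replicates 1 to 3 and 7.77, 7.42 and 5.20 CPM in KO-labelled replicates 1 to 3. WT mice were close together, and the highest KO-labelled library was well under the lowest WT one. The mean fell from 17.2 ± 0.933 to 6.80 ± 1.40 CPM (SD, n = 3 each), or -1.32 ± 0.16 as a log2 change and its SE (edgeR adjusted p = 0.00655). Npas2 encodes a paralog of CLOCK that can take its place beside BMAL1. It stood at 171, 160 and 128 counts in WT, or 6.64, 5.22 and 3.87 CPM, and at 22, 12 and 14 counts in the KO-labelled libraries, or 0.795, 0.550 and 1.04 CPM. This was the largest absolute change among the members, a log2 change of -2.75 ± 0.30, or 6.73-fold lower (edgeR adjusted p = 0.00492), and 0.444% of tested genes changed by more. Clock fell less. It stood at 62.3, 50.9 and 54.3 CPM in WT and at 34.7, 34.2 and 38.8 CPM in the KO-labelled libraries, again with a gap between the groups. The mean of Clock went from 55.9 ± 5.87 to 35.9 ± 2.49 CPM, a log2 change of -0.64 ± 0.10 (edgeR adjusted p = 0.0151), a call that ended without WT replicate 3 (adjusted p = 0.0655). The log2 ratio of Npas2 to Clock counts within a library fell from -3.42 ± 0.314 to -5.40 ± 0.334, with the groups apart.

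The Per genes encode the PERIOD proteins, the scaffolds of the repressing complex. Per3 was 34.1, 27.5 and 27.9 CPM in WT against 111, 73.6 and 105 CPM in the KO-labelled libraries, so that the lowest of these exceeded every WT value. Its mean rose from 29.9 ± 3.69 to 96.5 ± 20.2 CPM, or by 1.69 ± 0.17 on the log2 scale (edgeR adjusted p = 0.00411), and 1.27% of tested genes changed by more. Per2, at 23.95, 21.4 and 23.0 CPM in WT, stood at 41.4, 32.8 and 48.7 CPM in the KO-labelled libraries. Per2 rose 1.79-fold (log2 change 0.84 ± 0.14, edgeR adjusted p = 0.0177), and the call ended without WT replicate 2 or WT replicate 3 (adjusted p = 0.0843 in each case). Per1, which glucocorticoid and cAMP signals also induce directly, did not pass. It stood at 79.7, 96.9 and 111 CPM in WT and at 124, 92.4 and 117 CPM in the KO-labelled libraries, where replicate 2 lay inside the WT range. The log2 change of Per1 was 0.21 ± 0.15 with a 95% interval from -0.13 to 0.56 (edgeR adjusted p = 0.411), which does not reach the change of Per3. The log2 ratio of Per1 to Per3 counts was 1.22, 1.81 and 1.98 in WT and 0.151, 0.328 and 0.157 in the KO-labelled libraries, so the difference between these paralogs was present in each library. Among the KO-labelled libraries, replicate 2 had the lowest value of all 3 Per genes. Uts2 lies within the span of Per3 on the other strand, with 0 shared exon bases. It had 2, 2 and 1 counts in WT and 11, 5 and 7 in the KO-labelled libraries, under the filter, and its place in Per3 introns means that these may be reads of either gene, since the strand setting of the counting was not given in the sources used here.

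Cryptochromes are the repressors that bind the CLOCK and BMAL1 pair itself. Cry1 overlapped between the groups, at 12.0, 14.3 and 13.8 CPM in WT and 14.6, 13.5 and 13.1 CPM in the KO-labelled libraries. Its log2 change was 0.04 ± 0.11 with a 95% interval from -0.21 to 0.29 (edgeR adjusted p = 0.851), so a change of the size of Per2 lies outside the interval. Cry2 stood at 62.7, 43.0 and 35.98 CPM in WT and at 62.3, 65.5 and 75.96 CPM in the KO-labelled libraries. WT replicate 1 overlapped the other group, and Cry2 did not pass (log2 change 0.52 ± 0.19, edgeR adjusted p = 0.142). That WT library is the one with the high skeletal muscle markers given above. Without it the log2 change of Cry2 was 0.77 (edgeR adjusted p = 0.0307), and the part of muscle RNA in the WT value was not tested.

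The REV-ERB genes were higher. Nr1d2, which encodes REV-ERB beta, was the steadier of the pair, at 60.98, 49.8 and 58.1 CPM in WT and 109, 99.9 and 106 CPM in the KO-labelled libraries. Its mean rose from 56.3 ± 5.82 to 105 ± 4.55 CPM, a log2 change of 0.90 ± 0.09 (edgeR adjusted p = 0.00431). Nr1d1, which encodes REV-ERB alpha, ran at 157, 87.1 and 109 CPM in WT and at 193, 222 and 285 CPM in the KO-labelled libraries. WT replicate 1 again stood highest in its group and the groups did not overlap. Nr1d1 rose 1.98-fold (log2 change 0.99 ± 0.23, edgeR adjusted p = 0.0429), close to the threshold. Its call ended without WT replicate 2 (adjusted p = 0.12), WT replicate 3 (0.161) or KO-labelled replicate 2 (0.0782) or 3 (0.0976), with log2 changes between 0.81 and 1.02 in these fits. Exons of Nr1d1 and of Thra, the thyroid hormone receptor gene on the other strand, share 263 bases of the 2721 exon bases of Nr1d1. Thra stood at 83.2 ± 15.3 CPM in WT and 86.96 ± 6.43 CPM in the KO-labelled libraries (log2 change 0.07 ± 0.13, edgeR adjusted p = 0.797). The log2 ratio of Nr1d1 to Nr1d2 counts was 1.02 ± 0.296 in WT and 1.13 ± 0.297 in the KO-labelled libraries, a difference smaller than the spread within either group.

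**Figure D3:**
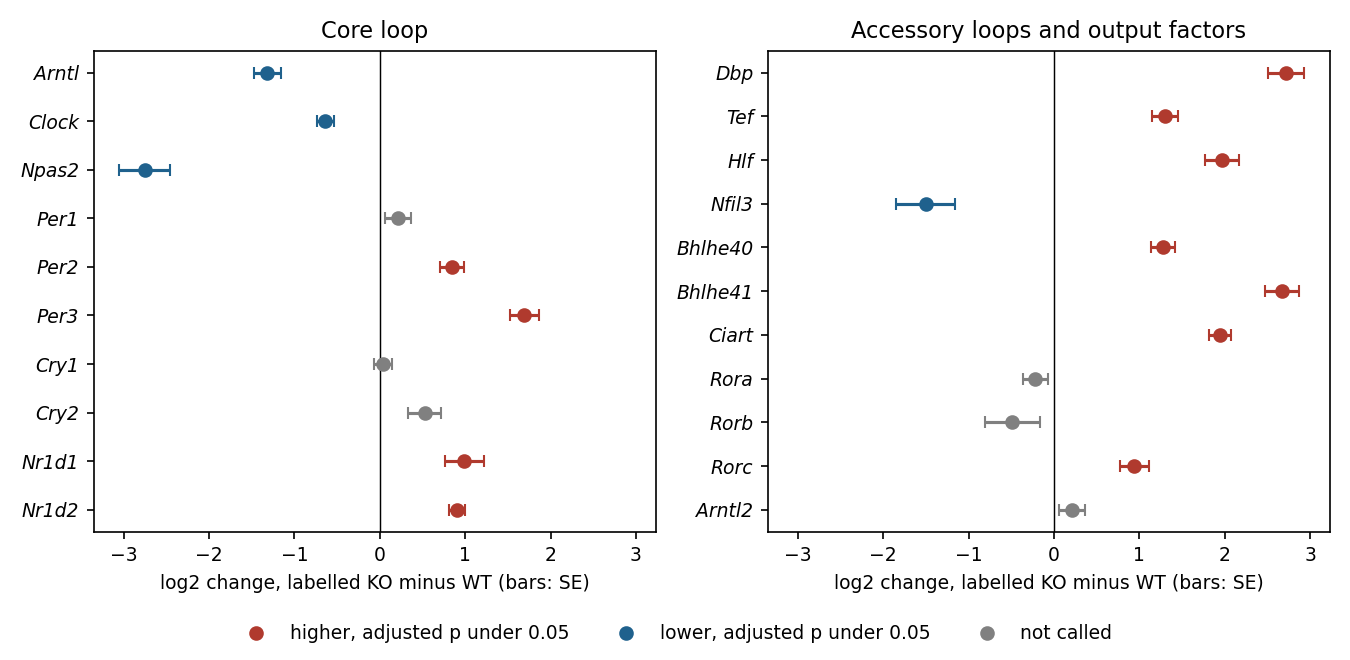
Log2 change in the KO-labelled libraries minus WT for the 10 core clock genes and for 11 genes of accessory loops and outputs, with bars for the SE and colour for the edgeR call at an adjusted p under 0.05. The activating arm lies to the left of 0, and Per2, Per3, Nr1d1 and Nr1d2 to the right. Of the 11 accessory genes 7 were called higher and 1 lower, against 4.23% and 3.42% of all tested genes.

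The shift was of similar size in the library with near WT Hspb6. The log2 ratio of Per3 to Arntl counts, which needs no library scaling, was 0.934, 0.773 and 0.667 in WT and 3.83, 3.30 and 4.31 in KO-labelled replicates 1 to 3. Replicate 1 lay between the other KO-labelled libraries. The share of that same log2 distance between WT and KO-labelled replicates 2 and 3 was then taken gene by gene. In KO-labelled replicate 1 it was 0.78 for Arntl, 1.11 for Clock, 0.977 for Npas2, 1.06 for Per2, 1.22 for Per3, 0.663 for Nr1d1 and 1.09 for Nr1d2, with a median of 1.06. The median share was 0.811 over all 1223 called genes (middle 50% from 0.621 to 1.03) and 0.608 over the 9 called brown fat genes. No test was made of these shares. They cover genes called in a fit that included this library, which favours larger shares. The uncalled members Cry2, Per1 and Cry1 had shares of 0.711, 2.97 and -55.0, for Per1 and Cry1 over small distances. Whether the clock shift follows the Hspb6 level was not tested.

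**Figure D4:**
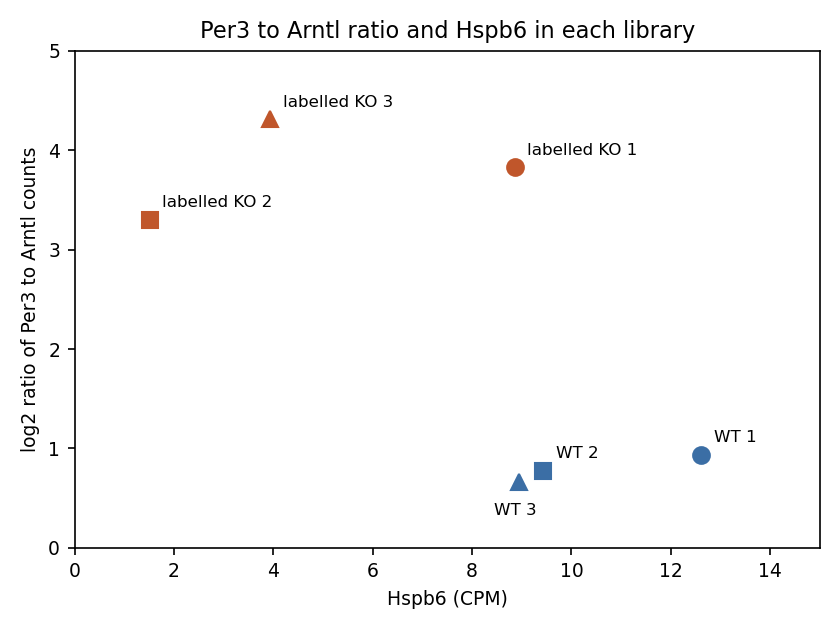
Log2 ratio of Per3 to Arntl counts (vertical axis) against Hspb6 in CPM (horizontal axis) for each of the 6 libraries. The WT libraries lie between 0.667 and 0.934 and the KO-labelled libraries between 3.30 and 4.31, including replicate 1, whose Hspb6 of 8.86 CPM is beside WT.

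Levels were compared between genes per kilobase of exon. In WT, Nr1d1 was the most abundant member, at 43.2 ± 13.1 CPM per kb, followed by Per1 at 17.0 ± 2.75, Nr1d2 at 12.1 ± 1.25 and Cry2 at 10.9 ± 3.19. Nr1d2 and Cry2 did not differ beyond their spread. Clock (5.63 ± 0.591), Arntl (5.55 ± 0.302), Per3 (4.98 ± 0.614), Cry1 (4.42 ± 0.394) and Per2 (3.91 ± 0.223) followed, each overlapping the next over its 3 libraries, and Npas2 was lowest at 1.24 ± 0.327 CPM per kb. In the KO-labelled libraries Nr1d1 stayed first at 85.7 ± 17.3 CPM per kb. Behind it Nr1d2 stood at 22.5 ± 0.973, Per1 at 19.7 ± 2.92, Per3 at 16.1 ± 3.36 and Cry2 at 15.6 ± 1.64, each again overlapping the next. Per3 thus moved from the low group to the level of Cry2. Below them, without overlap between neighbours, Per2 was at 7.02 ± 1.37, Cry1 at 4.54 ± 0.245, Clock at 3.62 ± 0.251, Arntl at 2.20 ± 0.452 and Npas2 at 0.188 ± 0.0579 CPM per kb, so that the activating arm took the 3 lowest places. These levels rest on the exons of all coding transcripts of a gene joined together, which understates genes with long, little used exons.

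**Figure D5:**
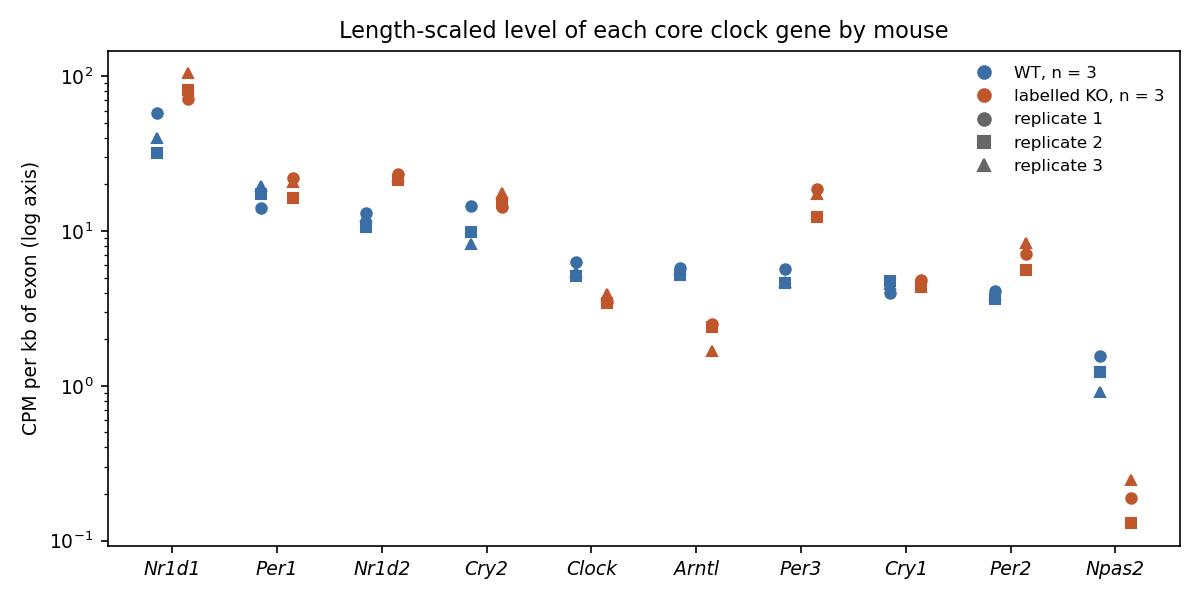
Level of each core clock gene per kilobase of exon in each mouse, on a log axis, ordered by the WT mean, with WT in blue, the KO-labelled libraries in orange and a marker shape for each replicate number. Nr1d1 is highest and Npas2 lowest in both groups, and Per3 rises from among the low genes to the level of Cry2.

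The surrounding clock genes were described from lists chosen by function. Among 11 genes of accessory loops and output factors, 7 rose and 1 fell by the edgeR call. Of all tested genes 4.23% were called higher and 3.42% lower. The median log2 change was 1.28 over the 11 genes and 0.000615 over all tested genes. Ciart, a repressor of CLOCK and BMAL1, was the most even, at 2.17, 2.25 and 2.42 CPM in WT and 8.75, 8.75 and 8.98 CPM in the KO-labelled libraries (log2 change 1.95 ± 0.13, edgeR adjusted p = 0.00182). Bhlhe41, which competes for E-boxes, went from 11.2, 7.96 and 7.62 CPM to 45.1, 58.0 and 68.1 CPM. The D-box activators moved with Per3: Dbp stood at 30.5, 17.6 and 23.8 CPM in WT and 169, 127 and 176 CPM in the KO-labelled libraries, and Hlf at 17.0, 12.2 and 10.2 against 50.9, 43.6 and 59.2 CPM. The one gene that fell, named after its value was seen, was the D-box repressor Nfil3, at 7.49, 17.1 and 20.9 CPM in WT and 5.71, 4.81 and 5.64 CPM in the KO-labelled libraries (log2 change -1.50 ± 0.35, edgeR adjusted p = 0.0430). Limma-voom called the same number higher, 7, and 0 lower.

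Kinases and turnover factors of PER and CRY proteins gave 0 calls among 17 genes with edgeR, with 1 at an unadjusted p under 0.05, and a median log2 change of -0.04. DESeq2 called 1 higher and limma-voom 0. Usp2, a deubiquitinase whose own transcript is rhythmic in many tissues, had a log2 change of 0.81 ± 0.25 (adjusted p = 0.0927), and Usp7, Prkaa2 and Csnk1a1 had log2 changes of -0.16, 0.24 and -0.10. Of 14 clock cofactors 0 rose with edgeR (2 at an unadjusted p under 0.05), DESeq2 or limma-voom, and 2 fell, Tbl1x (log2 change -0.55 ± 0.12, edgeR adjusted p = 0.0342) and Ncor1 (-0.49 ± 0.11, adjusted p = 0.0373), parts of the corepressor complex that REV-ERB proteins recruit. Cipc and Kdm5a, the next by p, had log2 changes of 0.20 and -0.22 and did not pass. Hdac3 and Tbl1xr1, also of that corepressor complex, were not called (log2 changes -0.03 and -0.10, edgeR adjusted p = 0.849 and 0.507). Over all tested genes edgeR called 4.23% higher and 3.42% lower.

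Genes that answer systemic time cues, such as glucocorticoid hormone, feeding and temperature, had 0 of 10 higher and 4 lower with edgeR, DESeq2 and limma-voom alike (2 higher at an unadjusted p under 0.05 with edgeR), with a median log2 change of -0.53. Zbtb16, a transcription factor induced by glucocorticoid, fell from 187, 218 and 199 CPM to 83.6, 43.3 and 55.5 CPM (log2 change -1.72 ± 0.22, edgeR adjusted p = 0.00843). Klf9, another glucocorticoid-induced factor, fell from 155 ± 18.8 to 87.4 ± 10.8 CPM (adjusted p = 0.0127), Sgk1, a kinase of the same kind, from 103 ± 15.6 to 58.7 ± 4.16 CPM (0.0131), and Noct, a rhythmic phosphatase, from 47.3 ± 4.99 to 23.3 ± 5.83 CPM (0.0171), all by edgeR. Fkbp5 and Tsc22d3, also glucocorticoid-induced, were not called (edgeR adjusted p = 0.106 and 0.27). Nor was Pdk4, which moved the other way (log2 change 0.95, edgeR adjusted p = 0.115). Pdk4 stood at 187, 155 and 157 CPM in WT and 159, 388 and 415 CPM in KO-labelled replicates 1 to 3. Replicate 1 thus lay inside the WT range of Pdk4. Over these 4 surrounding lists 7 of 52 genes rose and 7 fell, against 4.23% and 3.42% of all tested genes. Without WT replicate 2 or WT replicate 3 the number that fell was 1, and with KO-labelled replicate 2 or 3 left out it was 4, while the number that rose stayed between 6 and 8. The whole table lost calls in the same fits: 547 genes fell with all libraries, 58 without WT replicate 2, 53 without WT replicate 3, and 287 and 266 with KO-labelled replicate 2 or 3 left out.

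For Arntl, Per3 and Nr1d1 the genes of at least 1 CPM with the nearest pattern over the 6 libraries were listed by the root mean square difference of centred log2 CPM, among 14681 genes. Nearest to Arntl were Alas2 (0.137), Hba-a1 and Hba-a2 (both 0.161), Rab44 (0.172) and A430090L17Rik (0.174). The first 3 are erythroid genes and belong with the blood markers that fell. Hba-a1 and Hba-a2 are almost identical copies and had the same log2 change (-1.18), so they are not 2 separate neighbours. Nearest to Per3 were Alad (0.146), Ptprv (0.172), Tef (0.212), Hlf (0.232) and Slc25a1 (0.234), 2 of them, Tef and Hlf, D-box activators of the list above. Nearest to Nr1d1 were Hebp2 (0.0772), Kcnk3 (0.0939), Insig1 (0.109), Gm9899 (0.118) and Alox15 (0.134). Of these, Kcnk3 is one of the brown fat markers called higher, and Insig1 and Alox15 were not called (edgeR adjusted p = 0.0581 and 0.0628). Among the members themselves the closest pair was Per2 and Nr1d2, at 0.149. This measure follows the size of the group difference first, so it ranks patterns in these 6 libraries and no more.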

How the data were processed

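RNA of the inguinal fat pad was sequenced from 6 mice. Builds mm10 and GRCm38 and the tools bcl2fastq, CASAVA 1.8, TopHat and DESeq are named in the submitters' processing notes. Strand setting, annotation and counter were not given in the sources used here. The authors deposited raw whole-number counts for each gene ID, in 1 column per mouse, matched to samples by the names in the labels. Symbols came from RefSeq (GRCm38.p6) for 24334 of 24415 gene IDs. IDs with no symbol held between 1.3% and 5.74% of a library. Replicates differed by more than sampling noise in every pair (chi-square over degrees of freedom, at least 17.0).

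Counts were tested in R 4.3.3 with edgeR 4.0.16. Genes passed filterByExpr at a count of 10 and a total of 15, libraries were scaled by TMM, and genotype was the single term of the quasi-likelihood F test, with Benjamini-Hochberg adjustment over 15994 genes and calls under 0.05. SE values of log2 changes follow from F. CPM uses TMM-scaled totals, and log2 CPM a prior count of 2. Exon lengths are from GENCODE M21. The test was checked on simulated data. Alternatives were DESeq2 size factors, upper quartile scaling, no filter, a stricter filter, DESeq2 1.42.0, limma-voom (limma 3.58.1), a replicate block and leaving out each library.

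All 10 members were named in full. From each surrounding list the 4 genes with the smallest p were named, and for Arntl, Per3 and Nr1d1 the 5 nearest genes. Nfil3, Hdac3, Tbl1xr1, Fkbp5, Tsc22d3 and Pdk4 were named in addition, with their values known. Members, lists and alternatives were chosen with earlier results of these data known. The labels do not say that a replicate number marks a shared litter or day.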

Additional observations from a re-analysis of the deposited data

How the results depend on the processing

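Arntl, Npas2, Per3 and Nr1d2 kept their direction and call under all 13 alternatives, with log2 changes between -1.42 and -1.17, -2.93 and -2.55, 1.58 and 1.86, and 0.82 and 0.96. Per1 kept its direction and was never called. Cry1 turned negative without WT replicate 1 (-0.035) and with KO-labelled replicate 1 left out (-0.0052), uncalled in both, and reached 0.089 without WT replicate 2. The calls of Clock, Per2 and Nr1d1 that ended, and that of Cry2 that appeared, when a library was left out stand beside those genes above, and the replicate block ended that of Nr1d1 as well (below). The cause was not tested.

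Leaving out each library in turn gave between 2 and 5 members higher and between 2 and 3 lower, and between 6 and 8 surrounding clock genes higher and between 1 and 7 lower. For all genes it gave between 75 and 941 higher and between 53 and 730 lower. DESeq2 called 1136 genes higher and 1017 lower, with the same member counts of 4 and 3. The Per3 to Arntl ratio rose by 3.02 on the log2 scale with a prior count of 2 and by 3.03 with 0.5.

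Replicate numbers did not pair the samples: deviations of same-numbered libraries correlated at -0.038, 0.0917 and -0.0957, and not every library correlated best with its own number. With the replicate block edgeR called 226 genes higher and 169 lower, 3 members higher (Nr1d1 at adjusted p = 0.0777) and 3 lower, and 8 surrounding clock genes higher and 4 lower. Npas2 rests on the fewest counts of the 10 members, 22, 12 and 14 counts in the KO-labelled libraries.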

Other observations

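The promoter motifs were also counted over tested genes outside the core loop, as a description with no test. Of 118 such genes with a D-box in a promoter window, 10 were called higher, 8.47%, and 3 lower, 2.54%, where 4.23% and 3.42% of all tested genes were. Of 1354 genes with an E-box, 4.36% were called higher and 2.88% lower. Of 797 genes with the REV-ERB and ROR element, 4.52% were called higher and 2.76% lower. For 770 genes with the E-box variant the shares were 4.81% and 2.86%, and for 399 with the CRE 4.01% and 1.75%.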
